A study of Mus musculus with 20 samples.

Results

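The mouse hearts described here had not been put under pressure overload: 12 of the 20 hearts of the series, 6 from CKO mice and 6 from control mice, taken by their labels at the end of tamoxifen treatment with no operation, or 2 or 4 weeks after a sham operation. All mice were C57BL/6. Control mice are labelled Wnt5a floxed, and CKO mice are labelled Wnt5a floxed with Myh6-Cre/Esr 1, so both genotypes share the floxed Wnt5a alleles and only CKO mice carry the transgene. The Myh6 promoter drives the transgene in cardiac myocytes, and Cre joined to a part of the oestrogen receptor enters the nucleus once tamoxifen binds it. No group holds Cre without floxed Wnt5a, so an effect of the transgene or of Cre activity cannot be told apart from an effect of Wnt5a loss. The labels give tamoxifen by name only for the unoperated groups and give no dose, age or sex. At each of the 3 stages there were 2 hearts of each genotype: control hearts 22 and 23 and CKO hearts 21 and 24 at the end of tamoxifen, control hearts 12 and 16 and CKO hearts 14 and 15 after sham at 2 weeks, and control hearts 6 and 7 and CKO hearts 4 and 8 after sham at 4 weeks. The heart numbers are those of the labels. The other 8 hearts of the series had transverse aortic constriction (TAC), in which a band tightens the aortic arch so that the heart pumps against high pressure, and are used below only where a difference between unloaded and loaded hearts was tested.

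Wnt5a is a secreted ligand that acts mainly through the pathways that do not use beta-catenin: it binds Frizzled, Ror and Ryk receptors and signals to small GTPases, Jun kinases and calcium-dependent enzymes. In the adult heart, fibroblasts as well as myocytes can make Wnt ligands. The title of the series places Wnt5a in an axis with YAP, a co-activator of TEAD transcription factors that responds to mechanical load and is held in check by the Hippo kinases. The comparison asks what the genotype changed in hearts before and without overload.

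Values are FPKM, fragments scaled to transcript length and library size, as deposited for each heart. Over the 12 hearts 14788 to 15276 of 23284 genes were above 0, and the depth of the libraries relative to one another, read from the steps between the lowest values, was 0.905 to 1.04 in CKO and 0.933 to 1.06 in control hearts. Pearson's r across genes had a median of 0.974 over the 6 pairs of hearts of the same stage and genotype (0.970 to 0.978), and of 0.974 over the 12 pairs of the same stage and different genotype (0.966 to 0.978). Genes are not independent replicates. Differences are CKO minus control on the scale log2(FPKM + 0.5), which understates changes of low genes, averaged over the 3 stages unless said otherwise, with the standard error (SE) of a limma fit of 12589 genes. A gene passed if its adjusted p was under 0.05.

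The atrial gene Myl7 (atrial myosin light chain) was at 323, 50.6 and 372 FPKM in CKO hearts 21, 24 and 14 and at 32.2 FPKM in control heart 16, and at 1.07 FPKM or less in the other 8 hearts. Sln, the atrial regulator of the calcium pump, was at 119, 5.27, 109 and 4.07 FPKM in these 4 hearts and at 0.448 FPKM or less elsewhere. Atrial markers therefore moved with genotype at the end of tamoxifen, where both CKO hearts held them. Of the 10 atrial markers tested, 8 were above 0 in difference, with a median of 0.39, and the summed level of the list was 181 to 365 FPKM in control and 244 to 1444 FPKM in CKO hearts. Cardiac myocyte markers summed to 92572 to 120441 FPKM in control and 101381 to 125281 FPKM in CKO hearts, and none of the 13 was at 0 throughout. The part of atrial tissue in the results below was not tested. Values without the hearts of 10 FPKM or more of Myl7 are given below for some gene lists and counts of genes, and not for single genes. At the end of tamoxifen no such value could be had, since both CKO hearts are among those left out. At 2 weeks after sham such values rest on CKO heart 15 against control heart 12 alone.

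The targeted gene was examined first. Wnt5a (mm10 chr14:28504750-28527448, plus strand) stood at 2.82 and 2.56 FPKM in control and 1.61 and 2.33 FPKM in CKO hearts when tamoxifen ended. At 2 weeks after sham it was 2.55 and 3.06 FPKM in control and 1.76 and 2.11 FPKM in CKO hearts, and at 4 weeks 3.87 and 4.11 FPKM in control and 2.14 and 2.02 FPKM in CKO hearts. No CKO heart reached the lowest control heart. The difference was -0.54 ± 0.12 (log2, SE, 6 against 6 hearts), with a 95% interval of -0.80 to -0.28. It did not pass over all genes (limma adjusted p = 0.57, unadjusted 5.6e-04), while the exact permutation test of this gene alone, two-sided and with labels permuted within stages, gave p = 0.0093, the smallest that these arrangements can give. The stage differences were -0.38 ± 0.21, -0.44 ± 0.21 and -0.80 ± 0.21 in that order. Wnt5a RNA was thus still measured in every CKO heart. In whole tissue, fewer cells that express a gene cannot be told apart from less RNA per cell, and the labels do not say which exon is floxed.

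Esr1, part of whose sequence is carried by the transgene, rose in CKO hearts. It was 0.101 to 0.465 FPKM in the 6 control hearts (median 0.242) and 548 to 931 FPKM in the 6 CKO hearts (median 788), with no heart against its label. The difference was 9.97 ± 0.17 (log2, SE; limma adjusted p = 7.4e-14). Reads of the transgene and of the Esr1 gene on chromosome 10 are counted together, so the value says nothing of the endogenous receptor. Myh6, the myosin heavy chain gene whose promoter drives the transgene, was 3779 to 5316 FPKM in control (median 4628) and 4226 to 4925 FPKM in CKO hearts (median 4369), and its difference of -0.05 ± 0.10 did not pass (limma adjusted p = 0.98).

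**Figure D1:**
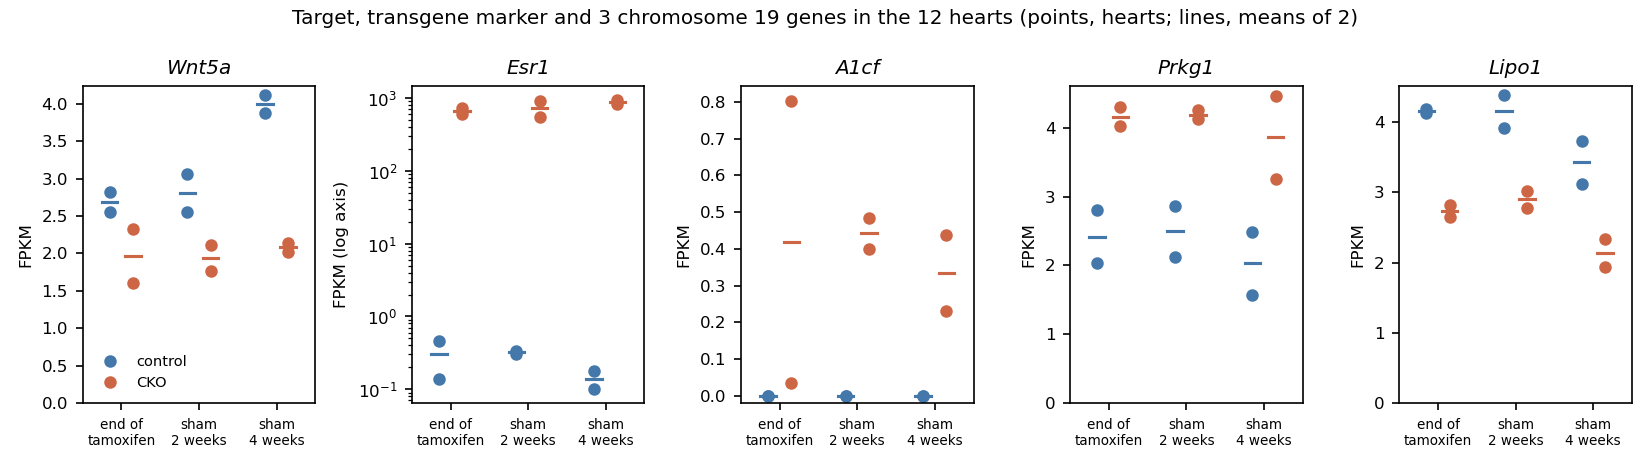
FPKM of Wnt5a, Esr1, A1cf, Prkg1 and Lipo1 in the 12 hearts by stage, with blue points for control and orange points for CKO hearts, short lines at the mean of 2 hearts, and a log axis for Esr1. Control and CKO hearts do not overlap at any stage in any of the 5 genes, and A1cf is at 0 in each control heart.

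Few genes separated the genotypes without overload. Of 12589 genes tested, 2 passed (0.0159%): Esr1, and the small nucleolar RNA gene Snora3, which was listed at 59.5 and 57.3 FPKM in control hearts 22 and 23 and at 0 in the other 10 hearts and in the 8 TAC hearts. Because an exact 0 in these tables can be a failed estimate of so short a gene, no fold is given for it. At an unadjusted p under 0.05 there were 316 higher and 265 lower genes, 4.62% of those tested. The median SE was 0.0938, and the 95% interval of the difference lay within 2-fold in either direction for 97.7% of genes and within 1.5-fold for 90.5%. Without control heart 6 the number that passed was 12, and without control heart 23 it was 10. Among the 12 were Prkg1, Lipo1, Hspa5, Manf, Sparc, Ppic and Trem2, and among the 10 were Prkg1 and Ckb. These fits leave control heart 7 or control heart 22 alone in its group, so the added calls rest on a lone heart. At single stages Esr1 and Snora3 passed when tamoxifen ended (2 genes, 0.0159%), and Esr1 alone (0.00794%) in the sham hearts of 2 weeks and of 4 weeks. At 4 weeks 873 genes (6.93%) had an unadjusted p under 0.05, beside 431 (3.42%) when tamoxifen ended and 423 (3.36%) at 2 weeks.

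Because so few genes passed, the values themselves were set side by side. In 119 of 12589 genes (0.945%) both CKO hearts lay on the same side of both control hearts at each of the 3 stages, 49 with CKO higher (0.389%) and 70 with CKO lower (0.556%). In 6 higher (0.0477%) and 15 lower (0.119%) genes all 6 CKO hearts lay on 1 side of all 6 control hearts. The 6 higher ones were Esr1, Gng2, Igf1, Prkg1, Sh3yl1 and Tuba1a. The 15 lower ones included Wnt5a, Lipo1, Xbp1, Manf, Creld2, Gpr182, Pi4k2a, Pfas, Tchp, Tmtc4 and Dhx8. Of these Esr1 alone passed, and lack of overlap is used below to choose which genes to describe, not as a test.

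Prkg1 and Lipo1, both genes of chromosome 19, stood close to the threshold without passing it. Prkg1 (cGMP-dependent protein kinase, chr19:30564489-31765033, minus strand) was at 2.03, 2.81, 2.12, 2.87, 2.49 and 1.57 FPKM in control hearts 22, 23, 12, 16, 6 and 7. In CKO hearts 21, 24, 14, 15, 4 and 8 it was at 4.30, 4.02, 4.13, 4.25, 4.46 and 3.26 FPKM. The difference was 0.71 ± 0.11 (limma adjusted p = 0.072). With 1 heart left out it was 0.62 (without control heart 7) to 0.80 (without control heart 6). Lipo1, a gene of the lipase family (chr19:33775498-33787459, minus strand), lay the other way. It was 3.12 to 4.39 FPKM in control (median 4.02) and 1.94 to 3.02 FPKM in CKO hearts (median 2.72). The difference was -0.52 ± 0.08 (limma adjusted p = 0.072). It passed with a prior variance that does not follow the mean (limma adjusted p = 0.045). With 1 heart left out it was -0.55 to -0.48.

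Between these genes lies A1cf (chr19:31868764-31948995, plus strand), which encodes an RNA-binding cofactor of apolipoprotein B mRNA editing in liver and gut, and which fell under the filter on low values. It was listed at 0 in all 6 control hearts. In CKO hearts 21, 24, 14, 15, 4 and 8 it was at 0.0341, 0.803, 0.401, 0.483, 0.232 and 0.437 FPKM. The TAC hearts divided in the same way, with 4 of 4 control hearts at 0 and 4 of 4 CKO hearts at 0.198 to 0.492 FPKM. Of 23284 genes, A1cf was the only one at 0 in every control heart and above 0 in every CKO heart of these 12, and no gene had the reverse pattern. With the filter lifted its difference was 0.79 ± 0.16 and did not pass (limma adjusted p = 0.6). As background, a widely used Myh6-driven inducible Cre line is catalogued with its transgene inserted in A1cf. The labels do not say which line was used, and where the transgene lies in these mice was not tested.

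The distance between Prkg1 and A1cf is 103730 bases, and that between A1cf and Lipo1 is 1.83 Mb. From Prkg1 to Lipo1, a window chosen after the values were seen, 11 genes were tested. Of these 5 had an unadjusted p under 0.05 and 3 did not overlap at any stage, and both counts include Prkg1 and Lipo1, which set the ends of the window. The shares over all genes with a single position were 4.71% and 0.965%. The third was Rnls (renalase), at 4.36 to 6.48 FPKM in control and 6.19 to 8.94 FPKM in CKO hearts, a difference of 0.34 ± 0.12 (limma adjusted p = 0.96). Across chromosome 19 as a whole, 36 of 403 genes (8.93%) had an unadjusted p under 0.05, beside the 4.71% of these 11404 genes, and 12 (2.98%) did not overlap at any stage, beside 0.965%. These 12 included Morn4 and Pi4k2a, neighbouring genes with differences of 0.64 ± 0.17 and -0.26 ± 0.07, and Brms1 near the centromere, at -0.21 ± 0.06.

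**Figure D2:**
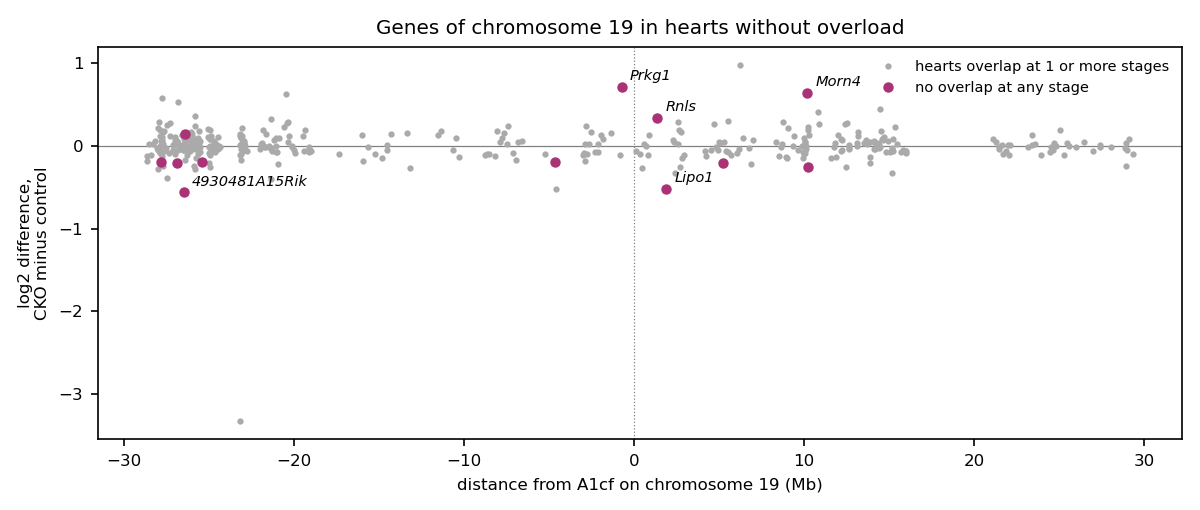
Difference between CKO and control hearts without overload (log2, vertical axis) of the 403 tested genes of chromosome 19, by distance in Mb from A1cf (horizontal axis). Magenta points are the 12 genes whose hearts do not overlap at any stage. Prkg1 and Lipo1 lie within 2 Mb of A1cf on opposite sides of 0, and the lowest point is the small RNA gene Snord22, whose hearts overlap.

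Other receptors and ligands of the Wnt system showed no such separation. Of 19 Wnt ligand genes, 4 passed the filter and were tested, and Wnt5a alone had an unadjusted p under 0.05. Wnt5b, Wnt9a and Wnt11 differed by 0.07 ± 0.14, -0.18 ± 0.14 and -0.08 ± 0.15. None of the 14 receptors and co-receptors tested passed. Fzd2, a Frizzled receptor that binds Wnt5a, was the 1 with an unadjusted p under 0.05, at 0.28 ± 0.12, with stage differences of 0.60 ± 0.21, -0.24 ± 0.21 and 0.48 ± 0.21. Ror1 differed by -0.12 ± 0.15 and Ryk by -0.04 ± 0.06, while Ror2 lay under the filter, at 0.220 to 0.411 FPKM in control and 0.175 to 0.590 FPKM in CKO hearts. Of 32 effectors of the branch without beta-catenin, none passed. The calcium-dependent kinase gene Camk2a, at -0.16 ± 0.07, and Nfatc2, a transcription factor activated by calcineurin, at -0.26 ± 0.12, had an unadjusted p under 0.05. That is 6.25% of the list lower, beside 2.11% of all genes. The median of that list was -0.01, and that of the 18 genes of the beta-catenin pathway and its targets 0.03, beside -0.00 for all genes.

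No gene of the YAP system passed. Yap1 was 29.7 to 37.2 FPKM in control and 31.0 to 35.5 FPKM in CKO hearts, a difference of -0.01 ± 0.06 with a 95% interval of -0.14 to 0.11. Its paralogue Wwtr1 (TAZ) differed by 0.10 ± 0.06. The median over 22 genes of YAP, TEAD and the Hippo kinases was -0.01 and that over 22 YAP and TEAD targets -0.00, with 1 gene of each list at an unadjusted p under 0.05 (the Hippo kinase gene Stk3 at 0.17 ± 0.08, and the kinase gene Nuak2 at 0.41 ± 0.17). Either is 4.55% of its list, beside 4.62% of all genes in both directions. The stress-responsive targets varied within a genotype: Ankrd1, a titin-binding protein, was 608 to 1253 FPKM in control and 468 to 1036 FPKM in CKO hearts, and Cyr61, a matricellular protein, was 23.4 to 213 FPKM in control and 25.1 to 182 FPKM in CKO hearts. Their differences were -0.12 ± 0.16 and 0.16 ± 0.27, so that the spread between hearts exceeded the difference.

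Genes for protein folding in the endoplasmic reticulum (ER) lay lower in CKO hearts, though none passed the test. When unfolded proteins build up in the ER, the sensors ATF6, IRE1 and PERK raise the transcription of chaperones. IRE1 does so through splicing of Xbp1. The list of 25 such genes, chosen with earlier results of these data known, held none that passed. At an unadjusted p under 0.05, 13 were lower and none higher, which is 52.0% of the list beside 2.11% of all genes. In 9 of the 25 (36.0%, beside 0.556% of all genes) both CKO hearts lay under both control hearts at each stage. The list's median was -0.19 over the 3 stages. By stage it was -0.13 when tamoxifen ended, -0.14 at 2 weeks after sham and -0.33 at 4 weeks. Members of such a list vary together within a heart, so the count is not that of 25 separate genes.

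Sequences ahead of the start sites of 5 of the 13 genes are shown first, because chaperone genes of this kind are known for the ER stress element, which is bound by NF-Y with ATF6 or XBP1. The element was searched as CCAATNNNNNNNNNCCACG on both strands (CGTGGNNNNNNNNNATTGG in reverse) in RefSeq promoters of GRCm38.p6, 250 bases before to 50 after each start. It occurred in 39 of 32851 promoters (0.119%) and in 7 of the 21 list members with a promoter in the table: Calr, Canx, Creld2, Dnajc3, Hsp90b1, Hspa5 and Pdia6. Genes of this list are known for the element, so that share follows from the choice of the list and not from these hearts. The matches of Calr and Dnajc3 are not shown. Capitals mark the match, and each line gives the bases around it, 5′ to 3′ on the gene's strand.
Hspa5: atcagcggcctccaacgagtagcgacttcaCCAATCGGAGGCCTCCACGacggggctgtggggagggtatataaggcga
Hsp90b1: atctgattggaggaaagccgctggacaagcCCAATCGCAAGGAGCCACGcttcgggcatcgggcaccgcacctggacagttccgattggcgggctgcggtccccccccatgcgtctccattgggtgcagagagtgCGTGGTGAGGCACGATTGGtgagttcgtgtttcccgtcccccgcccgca
Canx: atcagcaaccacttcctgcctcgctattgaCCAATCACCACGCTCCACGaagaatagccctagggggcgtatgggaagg
Creld2: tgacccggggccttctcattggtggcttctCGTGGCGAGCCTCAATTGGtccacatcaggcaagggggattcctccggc
Pdia6: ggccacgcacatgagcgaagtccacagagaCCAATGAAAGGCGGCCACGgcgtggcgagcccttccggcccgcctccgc

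These stretches lie at chr2:34771995-34772073 on the plus strand for Hspa5, chr10:86705503-86705686 on the minus strand for Hsp90b1, chr11:50325770-50325848 on the minus strand for Canx, chr15:88819490-88819568 on the plus strand for Creld2 and chr12:17266461-17266539 on the plus strand for Pdia6. Hspa5, Canx and Pdia6 hold 1 forward match, Creld2 1 reverse match, and Hsp90b1 1 of each. The median difference was -0.26 over the 7 members with a match (-0.42 to -0.13) and -0.13 over the 14 without (-0.51 to 0.11), so the ranges overlapped. Those without include Atf4, Ddit3, Asns, Trib3 and Chac1 of the PERK arm, so the groups differ in more than the match. A match in these letters is a description and not a measured binding site.

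Among the chaperones, Hspa5 (BiP, the main ER chaperone, which binds nascent chains and holds the stress sensors inactive) was at 523, 446, 491, 462, 387 and 625 FPKM in control hearts 22, 23, 12, 16, 6 and 7. In CKO hearts 21, 24, 14, 15, 4 and 8 it was at 406, 382, 325, 396, 350 and 347 FPKM. Control heart 7 was the highest of the 12 and control heart 6 lay within the CKO range. The difference was -0.40 ± 0.10 (limma adjusted p = 0.84, unadjusted 0.0016). Without control heart 6, which leaves control heart 7 alone at 4 weeks, it was -0.52. Without control heart 7 it was -0.28. Hsp90b1 (GRP94, the ER form of HSP90) was 218 to 363 FPKM in control (median 245) and 189 to 226 FPKM in CKO hearts (median 214), a difference of -0.29 ± 0.10.

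Other list members without overlap at any stage follow. Manf, a secreted factor of the ER, was at 33.7, 30.1, 39.8, 36.2, 34.1 and 62.9 FPKM in control and at 28.5, 27.5, 27.3, 26.3, 23.5 and 25.9 FPKM in CKO hearts, in the same order of hearts. All 6 CKO hearts were under all 6 control hearts, and control heart 7 stood far above the rest. Its difference was -0.52 ± 0.14 (limma adjusted p = 0.84). Without control heart 6, which leaves control heart 7 alone at 4 weeks, it was -0.67, and without control heart 7 it was -0.38. Creld2, a folding protein with disulfide activity, was 15.9 to 25.8 FPKM in control and 12.4 to 15.5 FPKM in CKO hearts (-0.42 ± 0.13), and the calcium-binding lectin chaperones Canx and Calr differed by -0.19 ± 0.05 and -0.19 ± 0.08. Xbp1, the transcription factor itself, was 56.8 to 74.0 FPKM in control and 48.3 to 53.9 FPKM in CKO hearts (-0.27 ± 0.07). The co-chaperone Dnajb9 differed by -0.23 ± 0.07 and the disulfide isomerase Pdia6 by -0.26 ± 0.10. Genes of the PERK arm lay on both sides of 0. Atf4, the transcription factor of that arm, differed by 0.09 ± 0.06, Ddit3 (CHOP) by 0.07 ± 0.12 and Asns by 0.07 ± 0.10, while Trib3 differed by -0.09 ± 0.14 and Chac1 by -0.15 ± 0.20. Edem1, which serves the removal of misfolded proteins, was the other of the 4 list members above 0, at 0.11 ± 0.09.

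The count of 13 became 9 without control heart 7, 16 without control heart 6 and 10 to 13 without any other single heart, and the list's median stayed between -0.24 and -0.15 whichever heart was left out. In sham hearts alone it was -0.21. Without the hearts of 10 FPKM or more of Myl7, which leaves CKO heart 15 against control heart 12 at 2 weeks, it was -0.22. Cytosolic heat shock genes had a median of 0.04 over 19 genes. By stage it was -0.02 when tamoxifen ended, 0.23 at 2 weeks after sham and -0.11 at 4 weeks. Only Hsp90aa1 had an unadjusted p under 0.05, and it was higher (0.24 ± 0.11, and 0.83 ± 0.18 in sham hearts at 2 weeks).

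**Figure D3:**
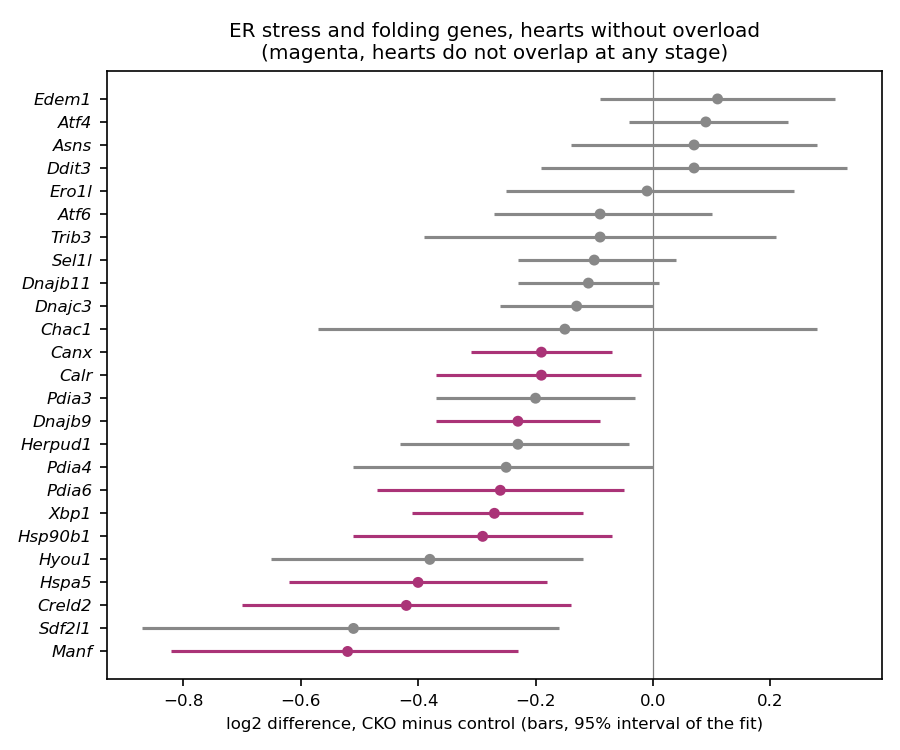
Difference between CKO and control hearts without overload (log2, horizontal axis) of the 25 ER stress and folding genes, with bars for the 95% interval of the fit and magenta for the 9 genes whose hearts do not overlap at any stage. In 13 genes the whole interval lies under 0, the lowest being Manf at -0.52, and 4 genes (Edem1, Atf4, Asns and Ddit3) lie above 0.

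Extracellular matrix genes lay slightly higher in CKO hearts. Of 49 tested, none passed, 44 were above 0, and 11 were higher and none lower at an unadjusted p under 0.05 (22.4%, beside 2.51% of all genes). The median was 0.19, made up of 0.20, 0.04 and 0.33 at the 3 stages. Sparc, a collagen-binding matricellular protein, was at 217, 235, 218, 199, 244 and 163 FPKM in control hearts 22, 23, 12, 16, 6 and 7 and at 262, 275, 254, 243, 244 and 284 FPKM in the CKO hearts. The difference was 0.30 ± 0.08 (limma adjusted p = 0.86). With 1 heart left out it was 0.20 (without control heart 7) to 0.40 (without control heart 6). Eln (elastin) was 9.91 to 13.3 FPKM in control and 10.8 to 17.8 FPKM in CKO hearts, with no overlap within a stage (0.25 ± 0.07), and Thbs3, a thrombospondin, differed by 0.30 ± 0.10. Mfap4, a microfibril protein, had the largest difference of the 11, at 0.73 ± 0.18, made up of 0.84 ± 0.32, -0.00 ± 0.32 and 1.34 ± 0.32 at the 3 stages. Among the main fibrillar collagens, Col1a1 differed by 0.15 ± 0.17 and Col3a1 by 0.25 ± 0.13. The count of 11 was 6 without control heart 7, 7 without CKO heart 8 or control heart 16, 20 without control heart 6, 23 without CKO heart 4, and 17 with log2(Myl7 + 0.5) as a covariate, which was added after the data were seen. The median of the matrix list was 0.17 in sham hearts without those of 10 FPKM or more of Myl7.

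Fibroblast markers lay a little higher with the matrix list, on which some of them also stand. Of 17 tested, 15 were above 0 with a median of 0.15, and Lum, Serpinf1, Mmp2 and Cd248 were higher at an unadjusted p under 0.05 (23.5%, beside 2.51% of all genes). Their summed level was 1435 to 1759 FPKM in control and 1445 to 2127 FPKM in CKO hearts, so the ranges overlapped. Among the genes chosen for no overlap with CKO higher were 3 of secreted proteins outside these lists. Pcolce, which speeds the processing of collagen, was 39.0 to 51.2 FPKM in control and 49.2 to 63.4 FPKM in CKO hearts (0.26 ± 0.06). Igfbp7, which binds insulin-like growth factors, was 124 to 196 FPKM in control and 194 to 230 FPKM in CKO hearts (0.30 ± 0.07), and Igf1, the growth factor itself, was 2.44 to 3.17 FPKM in control and 3.31 to 4.17 FPKM in CKO hearts (0.34 ± 0.09). The part of fibroblast number in these values was not tested.

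No immune or vascular marker passed. Macrophage markers had a median of 0.21 over 24 genes, 23 of them above 0, with Mrc1, C1qc and Trem2 higher at an unadjusted p under 0.05 (12.5%, beside 2.51% of all genes). The 3 stages differed, at 0.26, -0.21 and 0.61, and in sham hearts without those of 10 FPKM or more of Myl7 the median was -0.00. Summed macrophage markers were 476 to 908 FPKM in control and 587 to 884 FPKM in CKO hearts. Interferon-responsive genes had a median of 0.20 with 34 of 35 above 0 and none at an unadjusted p under 0.05, and complement genes had a median of 0.20 over 17. At 2 weeks after sham these medians were 0.05 and -0.02. Without CKO heart 14 the interferon median was 0.06, without control heart 16 it was 0.09, and without CKO heart 15 it was 0.35, while the complement median without control heart 16 was 0.12. Trem2, a lipid receptor of macrophages, was 0.627 to 2.79 FPKM in control and 2.25 to 3.73 FPKM in CKO hearts (0.56 ± 0.17). Without control heart 6, which leaves control heart 7 alone at 4 weeks, its difference was 0.77. Endothelial markers had a median of 0.10 over 18 genes, and smooth muscle and pericyte markers 0.11 over 15.

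No gene of contraction, excitation or energy supply passed. The list medians were -0.06 over 24 sarcomere and Z-disc genes, -0.04 over 24 calcium-handling genes, 0.00 over 25 ion channel genes and -0.05 over 16 genes of the intercalated disc. Atp2a2 (SERCA2, the pump that returns calcium to the sarcoplasmic reticulum) was 3627 to 4811 FPKM in control and 3364 to 3879 FPKM in CKO hearts, without overlap within a stage, a difference of -0.17 ± 0.06 (limma adjusted p = 0.96). Myh7, the myosin heavy chain of the loaded heart, was 12.0 to 177 FPKM in control and 17.3 to 149 FPKM in CKO hearts. The foetal and overload list had a median of 0.04 over 19 genes. Energy genes lay just under 0, with medians of -0.09 over 38 genes of fatty acid use, -0.07 over 52 of oxidative phosphorylation and -0.08 over 19 of the TCA cycle, where each of the 19 was under 0 and none had an unadjusted p under 0.05. The 30 p53 and DNA damage genes had a median of -0.03, with Fas and Gadd45b lower at an unadjusted p under 0.05 (6.67%, beside 2.11% of all genes). Fas lies on chromosome 19, 2.40 Mb from A1cf. The 18 oestrogen-responsive genes had a median of 0.03. Cell cycle genes had a median of 0.08 over 36.

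**Figure D4:**
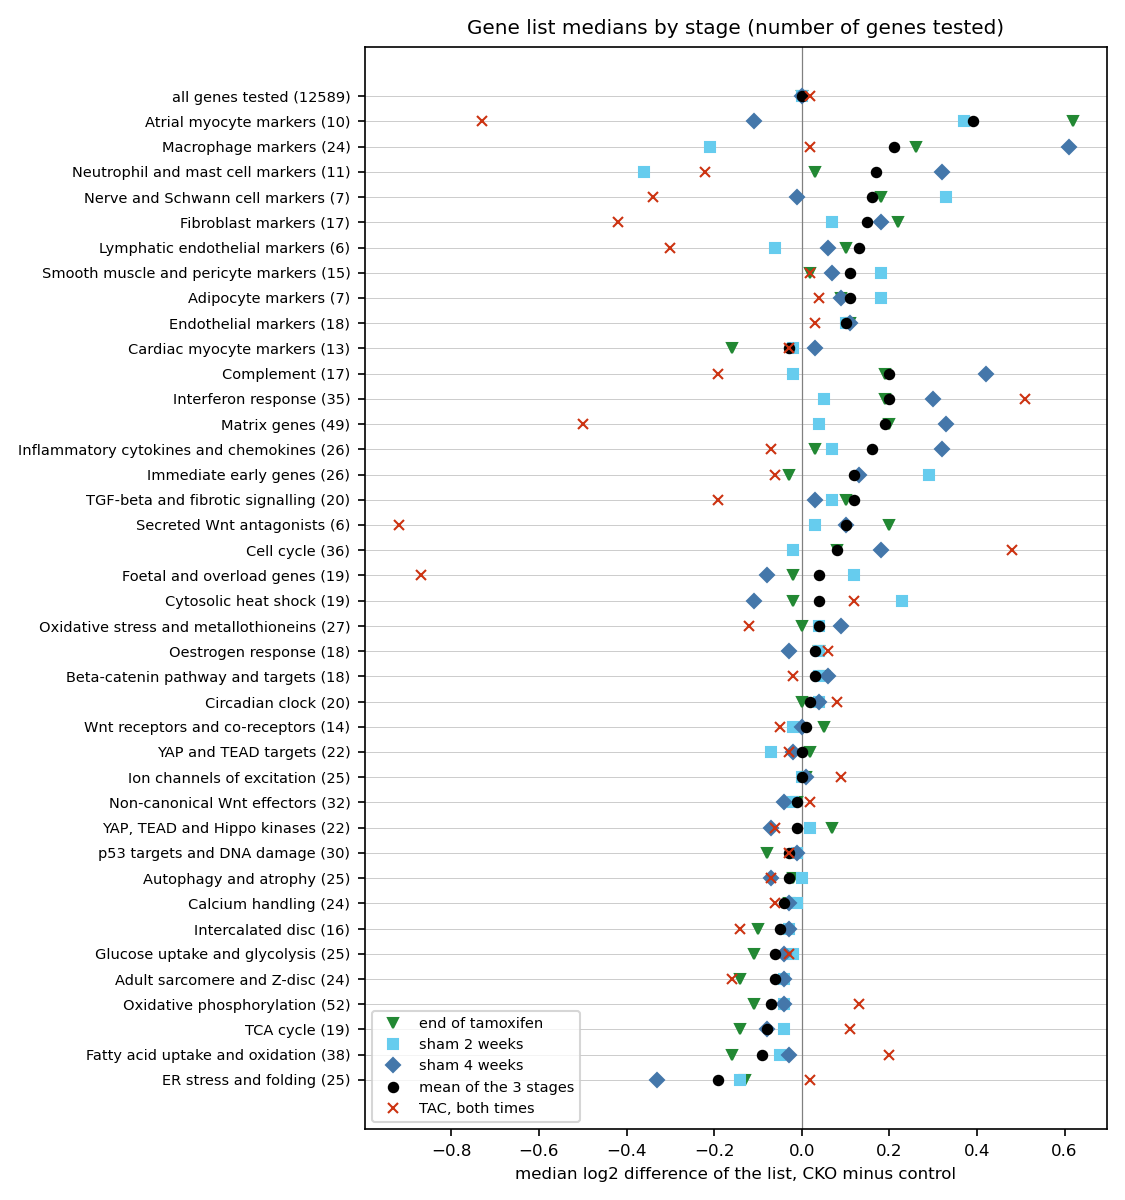
Median difference between CKO and control hearts (log2, horizontal axis) of each gene list with at least 5 genes tested, at the 3 stages without overload, as their mean, and in TAC hearts. Without overload ER folding is the lowest pathway list at -0.19, and interferon, complement and matrix lists lie at 0.19 to 0.20. The TAC medians of several lists lie outside the values without overload, among them secreted Wnt antagonists (-0.92), foetal (-0.87) and matrix (-0.50) lists.

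Of the remaining genes without overlap at any stage, those with small p included Ckb, Gng2, Gimap1, Fam53b, Madd and Eaf1 with CKO higher, and Irak1bp1, Det1, Elp3 and Gpr182 with CKO lower. Ckb, the brain form of creatine kinase, was at 29.0, 33.8, 28.3, 22.4, 27.1 and 24.9 FPKM in control and at 39.3, 39.0, 31.0, 30.2, 37.1 and 45.5 FPKM in CKO hearts in the order given for Hspa5. The difference was 0.41 ± 0.07 (limma adjusted p = 0.08). With 1 heart left out it was 0.36 (without control heart 16) to 0.47 (without control heart 12). Ppic, an ER-resident cyclophilin, was 20.7 to 27.6 FPKM in control and 27.3 to 31.3 FPKM in CKO hearts. Its difference was 0.29 ± 0.05 (limma adjusted p = 0.23), and 0.25 to 0.32 with 1 heart left out. Gng2, a G protein gamma subunit, separated the 6 CKO hearts (2.11 to 2.90 FPKM) from the 6 control hearts (1.31 to 2.02 FPKM) with a difference of 0.47 ± 0.10. Gpr182, an atypical chemokine receptor of endothelium, was 2.79 to 4.73 FPKM in control and 2.07 to 2.65 FPKM in CKO hearts (-0.44 ± 0.13).

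Whether the genotype difference moved with stage was tested as such. Between the end of tamoxifen and sham, Snora3 was the 1 gene that passed (0.00794%), with 341 (2.71%) at an unadjusted p under 0.05. Between sham at 2 and at 4 weeks none passed by limma, and 753 genes (5.98%) had an unadjusted p under 0.05. When the genotypes were averaged, 115 genes (0.913%) passed between sham at 2 weeks and the end of tamoxifen. Such an average has a smaller standard error than a change of the genotype difference, so these counts are not of equal precision.

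The same genotypes were then compared under load. In TAC hearts 434 genes passed (3.45%), 150 higher (1.19%) and 284 lower (2.26%) in CKO hearts. The genotype difference itself differed between TAC and sham hearts in 157 genes (1.25%), lower under TAC in 115 (0.913%) and higher in 42 (0.334%). Leaving out single hearts without overload gave 75 genes without CKO heart 14, 76 without control heart 16, 77 without control heart 7, 81 without CKO heart 8 and 116 to 144 for the others. The count was 93 with log2(Myl7 + 0.5) as a covariate and 18 without the hearts of 10 FPKM or more of Myl7. The sham values used here also enter the comparison without overload.

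Of the 49 matrix genes 22 passed, each with a lower difference under TAC, beside 0.913% of all genes that passed in that direction. Eln was 25.2 to 65.8 FPKM in control and 10.6 to 38.7 FPKM in CKO hearts after TAC (4 hearts each), so that its difference was 0.24 ± 0.09 in sham and -0.96 ± 0.09 in TAC hearts, a change of -1.20 ± 0.13 (limma adjusted p = 0.0029). Postn (periostin, of activated fibroblasts) was 119 to 413 FPKM in control and 23.5 to 225 FPKM in CKO hearts after TAC, with differences of 0.37 ± 0.17 in sham and -1.44 ± 0.17 in TAC hearts. Ltbp2, which binds fibrillin, differed by 0.13 ± 0.22 in sham and by -2.28 ± 0.22 in TAC hearts. Igf1, Igfbp7, Ppic, Pcolce, Sparc and Ckb, named above for higher values in unloaded CKO hearts, also passed, with changes of -0.77, -0.89, -0.63, -0.50, -0.65 and -0.67. These genes were chosen for their sham values, which enter the test.

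The ER folding list had a median of 0.02 in TAC hearts, the same as all genes. The change between sham and TAC was 0.30 at the median, and none of the 25 genes passed it. Hspa5 was 243 to 385 FPKM in control and 245 to 339 FPKM in CKO hearts after TAC, a difference of -0.01 ± 0.13, and its change of 0.45 ± 0.18 did not pass (limma adjusted p = 0.29). The genes of chromosome 19 were also compared: Lipo1 differed by -0.34 ± 0.10 in TAC hearts (limma adjusted p = 0.088) and Prkg1 by 0.21 ± 0.14 (limma adjusted p = 0.48), and neither change from sham passed. Wnt5a differed by -0.41 ± 0.15 in TAC hearts, and its change of 0.21 ± 0.21 did not pass (limma adjusted p = 0.73).

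**Figure D5:**
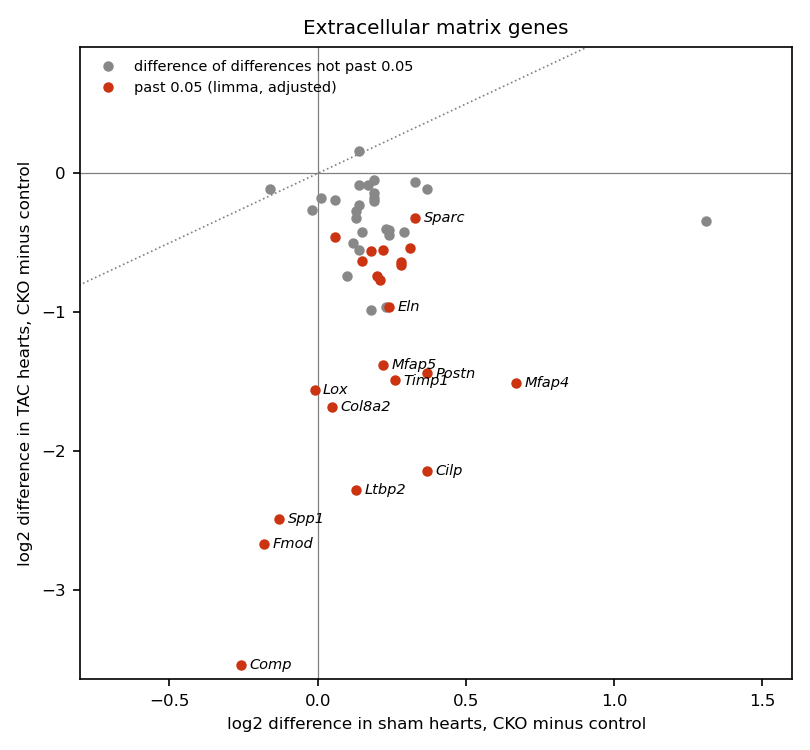
Difference between CKO and control hearts (log2) of the 49 matrix genes in sham hearts (horizontal axis) and in TAC hearts (vertical axis), with red for the 22 genes whose 2 differences differed at an adjusted p under 0.05 and a dotted line where both are equal. Most genes lie just right of 0 in sham hearts and below 0 in TAC hearts, with Eln at 0.24 and -0.96.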

How the data were processed

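Messenger RNA of 20 mouse hearts was measured, and 12 of them are compared here. Total RNA was isolated with an miRNeasy kit and libraries were made with a TruSeq Stranded mRNA kit, per the labels' protocols. Reads were aligned to mm10 with TopHat2 2.1.1 and Bowtie2 and gene values computed with Cuffdiff 2.2.1, per the submitters' processing notes. The authors deposited FPKM values for 23284 genes in each heart. Fragment counts were not used here, absolute depth is unknown, and no count test was run. Relative depth was read from 1621 genes near the floor, of whose 17853 lowest values 97.3% lay within 5% of whole multiples of the smallest step.

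Genes whose mean FPKM across all 20 hearts reached 0.5 were analysed as log2(FPKM + 0.5) in limma 3.58.1 (R 4.3.3), with 1 mean for each of the 10 groups, a prior variance following the mean, 10 residual degrees of freedom (median prior 3.81) and Benjamini-Hochberg adjustment over all 12589 genes. The 8 TAC hearts help to estimate the spread and have weight 0 in the comparison without overload. The fitting code was tested on simulated data. The labels name each library as a heart; that they come from separate animals is not stated further, so p-values measure the spread between these samples.

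Gene positions are GENCODE M21 for the same build, and promoters are RefSeq, GRCm38.p6. Named genes are Wnt5a, Esr1 and Myh6, those that passed, and up to 15 in each direction with the smallest p among genes of at least 1 FPKM without overlap at any stage. Clone-named genes (3 higher, 7 lower) were passed over. For the difference between TAC and sham the 10 genes with the smallest p are taken. Some genes these rules take are not reported here. The hearts, gene lists and alternatives were chosen with earlier results of these data known. Tables and figures were made with Python 3.11.15, pandas 2.3.3, numpy 2.4.6 and matplotlib 3.10.9. The alternatives changed the pseudocount (0.1 or 1 FPKM), the filter (none, or 3 FPKM), the scaling (median ratios or quantiles) and the prior (no trend), or used a fit of only the 12 hearts, fits without hearts of 10 FPKM or more of Myl7, and each heart left out in turn.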

Additional observations from a re-analysis of the deposited data

Results flagged for a closer look

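In 62 groups of 6 hearts (31 genes in control and in CKO hearts without overload), 6 held a heart that stood apart by the gap to its nearest neighbour relative to the range; chance alone gives such a heart in about 1 in 20 groups. Prkg1 was lowest in CKO heart 8 at 3.26 FPKM. Fam53b was highest in control heart 6 at 7.09 FPKM and Det1 lowest there at 6.42 FPKM. Igfbp7 was lowest in control heart 7 at 124 FPKM and Xbp1 highest there at 74.0 FPKM. Irak1bp1 was highest in CKO heart 24 at 3.30 FPKM. Stages are mixed within these groups.

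The genotype difference changed between the end of tamoxifen and sham for Snora3 (limma adjusted p = 9.2e-10), which was listed above 0 in 2 control hearts alone. Between TAC and sham hearts it changed in 157 genes by limma. Among the genes named for the comparison without overload, the change was -0.67 for Ckb, -0.63 for Ppic, -0.50 for Pcolce, -0.89 for Igfbp7, -0.77 for Igf1, -0.65 for Sparc and -1.20 for Eln (elastin), and 0.48 for Det1, each with a limma adjusted p under 0.05. Other genes with the smallest p were Tgfb3 at -1.03, Prkab2 at -0.88, Dio2 at -1.80, Pi16 at -1.20, Ltbp2 at -2.41, Postn at -1.81, Mgp at -1.62 and Clu at -0.92, each log2 and with a limma adjusted p of 0.0029. A1cf lay under the filter, yet its CKO hearts had a median of 0.419 FPKM against 0 in every control heart.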

How the results depend on the processing

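The number of genes that passed without overload (2) became 4 with no filter and 1 with a filter of 3 FPKM, at which Wnt5a itself was not tested. It was 3 with a prior without trend, which added Lipo1 (limma adjusted p = 0.045), and 3 in a fit of only the 12 hearts, which added Snora65. With no filter 5 passed when tamoxifen ended, 2 in the sham hearts of 2 weeks, 2 at 4 weeks, 3 in sham hearts of both times, 4 for the change between the end of tamoxifen and sham and 2 for that between sham at 2 and 4 weeks. The last was 1 with a pseudocount of 0.1 FPKM, and the change between the end of tamoxifen and sham was 2 in a fit of only the 12 hearts. Without hearts of 10 FPKM or more of Myl7, 6 genes passed in sham hearts at 2 weeks, 5 in sham hearts of both times, 6 for the change from 2 to 4 weeks and 18 for TAC minus sham, which was 93 with the Myl7 covariate. That exclusion leaves no CKO heart at the end of tamoxifen, so the comparison over 3 stages could not be fitted. In sham at 2 weeks it leaves only CKO heart 15 and control heart 12, so these counts rest on lone hearts there.

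With each heart left out in turn, 2 to 12 genes passed without overload (12 without control heart 6, 10 without control heart 23), 2 to 7 when tamoxifen ended, 1 to 5 and 1 to 7 in sham hearts at 2 and 4 weeks, 1 to 8 in sham hearts of both times, 1 to 7 for the change between the end of tamoxifen and sham, 0 to 3 for that from 2 to 4 weeks and 75 to 144 for TAC minus sham. Genes without overlap numbered 171 to 344, since fewer hearts must separate. Several added calls were small RNA genes. A lone heart left in a group is assumed to vary like the others. The Wnt5a difference was -0.61 to -0.47, with an exact permutation p of 0.0093 to 0.019, and that of Esr1 was 9.85 to 10.09. The sign of Myh6 turned with quantile normalization (0.03), the Myl7 covariate (0.00) and without control heart 7 (0.01) or 22 (0.00), in a range of -0.11 to 0.01 over the hearts left out. All 540 medians of lists with a heart left out moved by less than the spread between hearts. Leaving out 1 heart moves a mean over 3 stages by only a part of that spread, so this could hardly come out otherwise and is no sign of stability. The interferon median ranged from 0.06 to 0.35 and the atrial median from 0.18 to 0.62. Under the other alternatives 400 of 403 medians moved by less than the spread. No paired analysis was possible because each heart number occurs once.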
